A study of Mus musculus with 10 samples.

Results

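The regulated exocytosis machinery was taken as 56 named genes that cover the SNARE proteins of the plasma membrane and of secretory vesicles, the proteins that bind, prime and disassemble them, the synaptotagmins, the Rab effectors that dock granules, and the exocyst. All 56 were found in a count table of 53801 genes by their Ensembl identifiers, and 51 of them were among the 14336 genes with enough reads to be tested. RNA was sequenced from AtT20/D16v-F2 cells, a mouse line derived from a corticotroph tumour of the anterior pituitary. One stable line carried a lentiviral short hairpin RNA against *Creb3l1* (*Creb3l1* shRNA) and the other a lentiviral non-targeting shRNA (control), with 5 libraries each and no other treatment. Each condition is therefore a single transduced line, and whether the lines were clones or pools was not given in the sources used here. The methods describe replicates as biological, but no label ties the libraries to separate cultures, so the tests measure the spread between these libraries.

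A corticotroph stores ACTH in dense-core granules and releases it when calcium rises. Fusion is driven by a SNARE complex, in which a vesicle-associated membrane protein (VAMP) on the granule zips together with a syntaxin and a SNAP-25 family protein on the target membrane. Munc18 and Munc13 proteins guide the assembly of this complex, complexins bind it once assembled, synaptotagmins and Doc2 proteins respond to calcium, and the ATPase NSF with its SNAP adaptors takes the spent complex apart. Before fusion, Rab3 and Rab27 on the granule recruit effectors such as rabphilin, Noc2, the RIM proteins and the synaptotagmin-like proteins, and the exocyst tethers arriving vesicles.

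The libraries held between 17420698 and 22205107 counts. In non-targeting replicate 3, 4.13% of the counts fell on the non-coding gene *Gm42418*, whose share was 0.107% to 0.129% in the remaining control libraries. *Creb3l1* was at 3689 ± 148 (SD, n = 5) normalised counts in the non-targeting line and at 1090.0 ± 59.2 (SD, n = 5) in the *Creb3l1*-shRNA line, that is, at 29.5% of the control level (log2 fold change -1.76, SE 0.0356, adjusted p = 2.05e-33, edgeR). Its counts were 3805, 3864, 3695, 3551 and 3531 in the control libraries and 1093, 1133, 1014, 1159 and 1051 in the knockdown libraries, with no overlap. Normalised counts are counts scaled by the effective library size, with TMM factors from edgeR. Of 7 corticotroph markers, 6 were present in every library and *Avpr1b* had no count, and their sum, mostly *Pomc*, was from 150424 to 161539 normalised counts in the control line and from 108547 to 115408 in the knockdown line. Single markers went the other way, *Neurod1* from 1498 to 1664 in the control line and from 2309 to 2501 in the knockdown line and *Pitx1*, with overlap, from 821 to 965 and from 944 to 1242. Of 7 markers of other anterior pituitary cells, 4 had no count in any library and *Nr5a1* alone exceeded 10 normalised counts throughout (sums 69.8 to 94.1 and 52.1 to 71.3). The summed level of 3 neuronal markers was from 2.83 to 8.45 normalised counts in the control libraries and from 9.48 to 18.2 in the knockdown libraries, with *Rbfox3* contributing most and *Slc17a6* and *Gad1* at or near 0. The sum of 2 endothelial markers moved the other way, from 10.6 to 18.3 against 4.28 to 7.45, with *Cdh5* at 0. The sums were from 814 to 1153 and from 943 to 1681 for 4 fibroblast markers, with *Dcn* at or near 0, from 33.9 to 51.9 and from 24.6 to 38.2 for 3 leukocyte markers, with *Ptprc* and *Cd3e* at 0, and from 114 to 178 and from 153 to 199 for *S100b* and *Sox2* of folliculostellate and stem cells, nearly all of it *Sox2*. Their part in the results was not tested. In bulk RNA, fewer cells that express a gene and less of its RNA per cell cannot be told apart.

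Between the lines, the exocytosis genes differed in both directions and mostly by small amounts, and the knockdown and the choice of line cannot be told apart. Of the 51 members tested, 30 had an adjusted p under 0.01 (edgeR's quasi-likelihood test, Benjamini-Hochberg over all 14336 genes), or 58.8%, where 40.7% of all genes tested did. Expression rose for 16 members (31.4%, against 20.6% of all genes) and fell for 14 (27.5%, against 20.1%). The members were well expressed, with a median of the mean normalised counts of 1039 against 594 for all genes tested, and more genes pass the test at high counts. Above a mean of 500 normalised counts, 51.0% of genes were called, and so were 25 of the 39 members at this level (64.1%). A change of at least 1.5-fold was reached by 7 of the called members (13.7%), where 7.73% of all genes were called with such a change. The median log2 fold change was -0.011 for the members and -0.0024 for all genes, with a sign that turned for the members on plain library totals (0.00099), and the median of the absolute log2 fold change was 0.16 and 0.15. The control and knockdown libraries did not overlap for 26 members, or 51.0%, against 36.0% of all genes. These shares are descriptions of the list and carry no test.

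**Figure D1:**
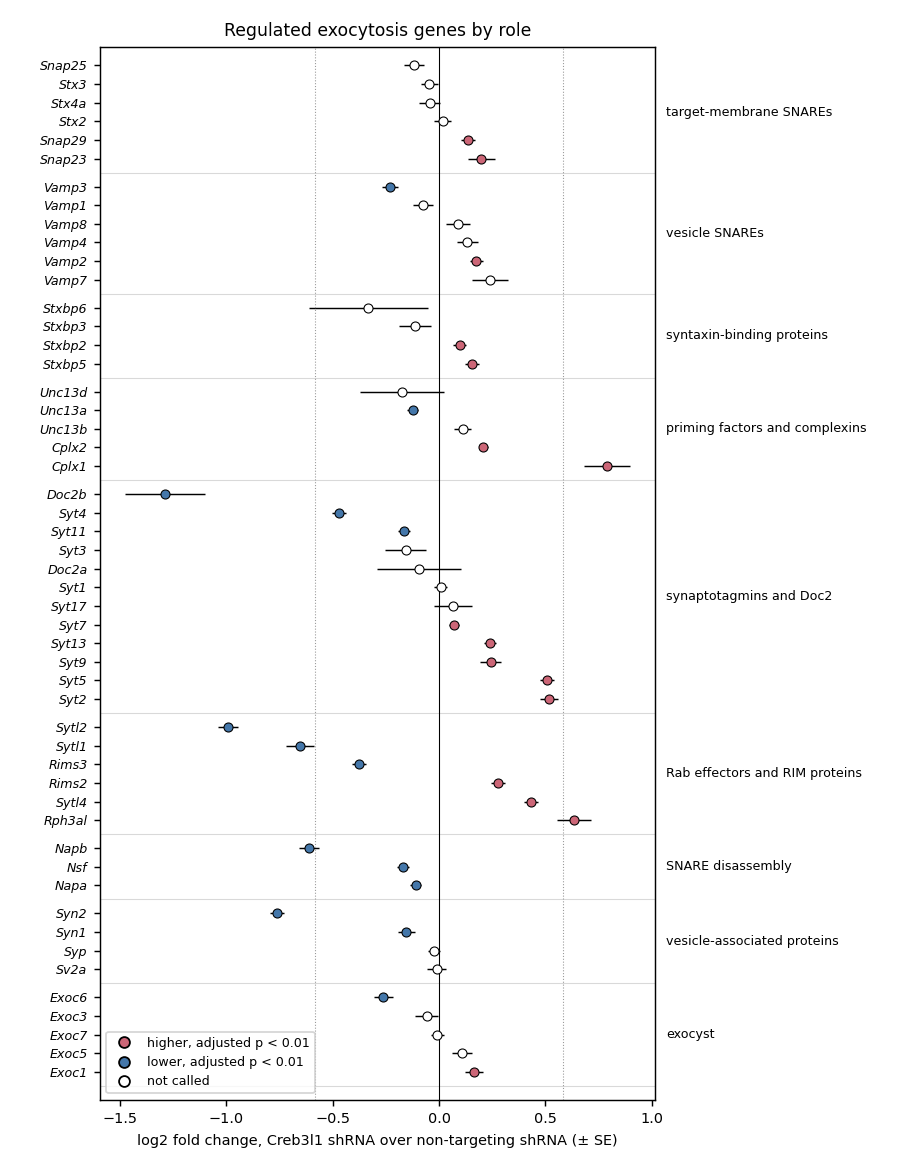
Log2 fold changes (*Creb3l1* shRNA over non-targeting shRNA, x axis, ± SE) of the 51 members tested, grouped by role. Filled points passed an adjusted p of 0.01, 16 higher (31.4%, against 20.6% of all genes) and 14 lower (27.5%, against 20.1%). Dotted lines mark a 1.5-fold change. All 3 listed genes of SNARE disassembly lie to the left of 0, and the Rab effectors and RIM proteins lie far to both sides.

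The levels of the members in the control line spanned from 3.64 to 2849 normalised counts per kilobase of exon, the scale on which different genes were compared, and 34 members had at least 100. *Cplx2* was highest, at 2849 ± 38.3 (SD, n = 5) per kilobase, followed by *Syt7* at 1730.2 ± 43.8. *Syt4* at 1106 ± 24.3 and *Syn1* at 1019.5 ± 70.4 came next. This order depends on the length used: with the longest annotated transcript in place of all exons, *Napa* (1374), *Snap25* (1231), *Vamp2* (1129) and *Syp* (1122) stood above *Syt4* (1106) and *Syn1* (1031), below *Cplx2* and *Syt7*. *Syt11* (918 ± 14.1), *Napa* (913 ± 10.1), *Snap25* (885 ± 49.4) and *Syt13* (871 ± 10.1) formed a group of like level, in which neighbours differed by less than their spread. At the other end were *Stxbp6*, *Unc13d*, *Doc2a* and *Doc2b*, with levels between 3.64 and 16.7 normalised counts per kilobase.

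**Figure D2:**
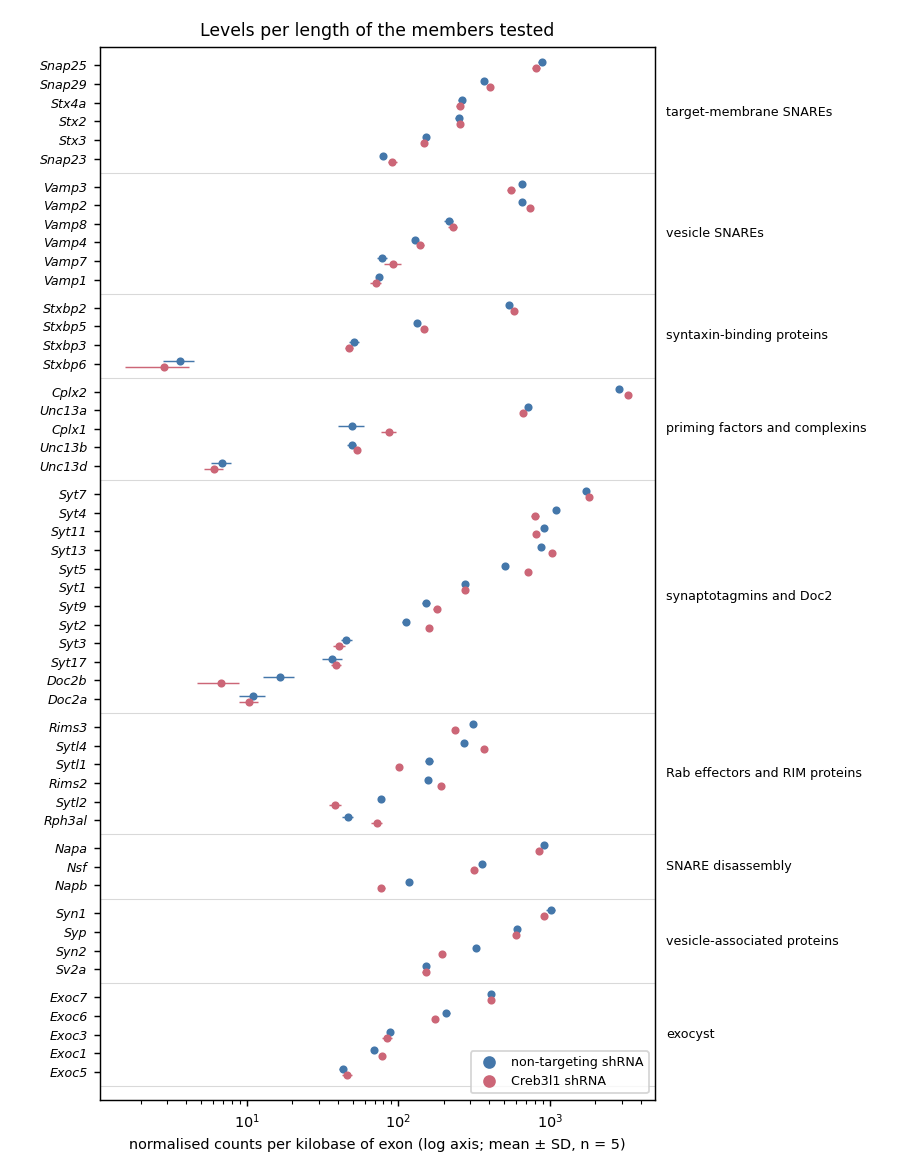
Level per length of the 51 members tested in the non-targeting line (blue) and the *Creb3l1*-shRNA line (red), as normalised counts per kilobase of exon on a log axis (mean ± SD, n = 5). The highest point is *Cplx2* and the lowest *Stxbp6*, and most pairs of points lie close together on this scale.

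The remaining 5 members were not tested. *Cadps2*, *Rims1* and *Sytl5* had no count in any library, and *Rph3a* had 1 count in all. A count of 0, read as a limit of 3 counts over all libraries of a line, allows up to 0.0302 CPM in the control line and up to 0.0290 CPM in the knockdown line. These limits cover counting error only. *Stx1a*, the syntaxin of neuronal exocytosis, had 21 counts in the control line and 23 in the knockdown line, between 1 and 8 in each library. Any difference in these genes was not detectable at this depth.

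Among the listed SNAREs of the target membrane, *Snap23* and *Snap29*, ubiquitous relatives of *Snap25*, rose and none of the tested members was called lower. A further relative outside the list, *Snap47*, fell from 2716 ± 92.2 to 2478 ± 89.1 (SD, n = 5) normalised counts (log2 fold change -0.13, adjusted p = 0.00045, edgeR). *Snap29*, a soluble SNARE without a membrane anchor, rose from 1271 ± 26.7 to 1397 ± 22.4 (SD, n = 5) normalised counts, giving a log2 fold change of 0.14 (adjusted p = 0.0007, edgeR), with no overlap between the lines. In non-targeting replicates 1 to 5, *Snap23* was at 369, 339, 339.9, 324 and 339 normalised counts, and in *Creb3l1*-shRNA replicates 1 to 5 at 419, 354, 391, 417 and 381. *Snap23*, which serves exocytosis in non-neuronal cells, thus rose by 14.8% (log2 fold change 0.20, SE 0.0636, adjusted p = 0.0082, edgeR), but knockdown replicate 2 lay within the range of the controls. This call did not hold in 10 of the 18 alternative fits, 7 of which left out a single library. *Snap25* itself, the SNARE of neurones and endocrine cells, was at 6009 ± 336 (SD, n = 5) normalised counts in the non-targeting line and 5532 ± 353 (SD, n = 5) in the *Creb3l1*-shRNA line (log2 fold change -0.12, adjusted p = 0.057, edgeR), and was called lower in 4 of the 18 alternative fits. The plasma membrane syntaxins *Stx2*, *Stx3* and *Stx4a* had log2 fold changes of 0.016, -0.045 and -0.044 with standard errors of 0.0394, 0.0407 and 0.0493, and none was called.

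Of the 6 vesicle SNAREs, the closely related *Vamp2* and *Vamp3* moved in opposite directions. *Vamp2*, or synaptobrevin 2, the main VAMP of synaptic vesicles and dense-core granules, rose from 2489.8 ± 75.0 to 2810.2 ± 77.9 (SD, n = 5) normalised counts (log2 fold change 0.17, SE 0.0299, adjusted p = 4.6e-06, edgeR). *Vamp3*, or cellubrevin, the VAMP of constitutive and recycling vesicles, fell from 1893 ± 67.0 to 1611 ± 100.7 (SD, n = 5), with a log2 fold change of -0.23. For both genes every library of one line lay outside the range of the other, and both calls held in every fit. The control libraries 1 to 5 held 186, 203, 201, 186 and 219.7 normalised counts of *Vamp7*, and the knockdown libraries 1 to 5 held 249.9, 193, 215, 241 and 274. *Vamp7*, a VAMP with a long regulatory domain, had the largest fold change of the role (0.24, SE 0.0859) but was not called (adjusted p = 0.018), and the lines overlapped. Its gene lies on the scaffold GL456233.1. *Vamp1*, *Vamp4* and *Vamp8* had log2 fold changes of -0.075, 0.13 and 0.087 and were not called.

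The syntaxin-binding members that were called both rose, and by little. *Stxbp5* encodes tomosyn, a protein with a SNARE motif that holds back fusion, and rose from 2199 ± 100.8 to 2447 ± 40.6 (SD, n = 5) normalised counts (log2 fold change 0.15, adjusted p = 8e-05, edgeR). Once GC content and transcript length were offset, this change was 0.011 and the call was lost. *Stxbp2*, which encodes Munc18-2, rose from 2253 ± 74.7 to 2409.6 ± 53.9 (SD, n = 5), with a log2 fold change of 0.096 (adjusted p = 0.0083, edgeR) that was not called in 10 of 18 alternative fits. *Stxbp3*, the Munc18 partner of syntaxin 4, was not called (-0.11, SE 0.0734). *Stxbp6*, which encodes amisyn, was nearly silent. For *Stxbp6*, normalised counts were 24.1, 20.1, 13.4, 22.5 and 16.03 in non-targeting replicates 1 to 5 and 23.9, 17.1, 5.32, 17.1 and 12.7 in *Creb3l1*-shRNA replicates 1 to 5. The lines overlapped, and at this depth a log2 fold change of -0.33 with an SE of 0.281 could not be told from 0 (adjusted p = 0.34, edgeR). It was -0.13 without *Creb3l1*-shRNA replicate 3 and -0.56 without *Creb3l1*-shRNA replicate 1.

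Both complexins of the list rose, and the main Munc13 gene fell slightly. In non-targeting replicates 1 to 5, *Cplx1* was at 129.8, 105.97, 74.6, 115 and 122 normalised counts, and in *Creb3l1*-shRNA replicates 1 to 5 at 184, 217, 178, 209 and 167. Every knockdown library was above every control library, and non-targeting replicate 3 was the lowest of its line. *Cplx1* (ENSMUSG00000033615, GRCm38 chromosome 5, 108518554 to 108550024, minus strand) rose 1.73-fold, the largest increase of any member (log2 fold change 0.79, SE 0.108, adjusted p = 1.2e-07, edgeR). *Cplx2*, which was far more abundant per length, rose from 14038 ± 189 to 16208 ± 474 (SD, n = 5) normalised counts, giving a log2 fold change of 0.21 (adjusted p = 1.3e-10, edgeR). *Unc13a*, which encodes the priming factor Munc13-1, fell from 9128 ± 384 to 8373 ± 299.6 (SD, n = 5), and so fell by 8.27% (log2 fold change -0.12, adjusted p = 0.00026, edgeR), with an overlap between single libraries of the lines. *Unc13b* (0.11, adjusted p = 0.02) was not called, and its sign changed when GC content and transcript length were offset. *Unc13d* (-0.17, SE 0.196), at a mean of 32.2 counts in the control line, was not called.

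The synaptotagmins and Doc2 genes moved in both directions. Of the 12 genes of this role, 8 were called (66.7%, against 40.7% of all genes), of which 5 rose and 3 fell (20.6% and 20.1% of all genes). *Syt2*, a fast sensor related to *Syt1*, rose from 856 ± 51.3 to 1223 ± 44.8 (SD, n = 5) normalised counts, or by 43.1% (log2 fold change 0.52, SE 0.0413, adjusted p = 6.5e-14, edgeR). *Syt5* rose by a like amount, from 1211 ± 25.8 to 1722 ± 39.9 (SD, n = 5), and *Syt9*, a sensor of dense-core granules, rose by 0.24 on the log2 scale. *Syt7*, the high-affinity sensor and the most abundant member of the role per length, changed by 0.071 (adjusted p = 0.0074, edgeR). The lines overlapped for *Syt7*, and its call was lost in 9 of 18 alternative fits. *Syt1*, the classical sensor of synaptic vesicles, was at 2306 ± 31.0 (SD, n = 5) normalised counts in the non-targeting line and 2318 ± 85.3 (SD, n = 5) in the *Creb3l1*-shRNA line, a log2 fold change of 0.0071 with an SE of 0.0308. *Syt3* (-0.16) and *Syt17* (0.067) were not called.

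*Syt4* and *Syt11*, a pair of close relatives whose first C2 domain does not bind calcium, both fell. *Syt4* went from 4304 ± 94.4 to 3104 ± 183 (SD, n = 5) normalised counts and thus fell by 27.8% (log2 fold change -0.47, SE 0.0315, adjusted p = 2.1e-15, edgeR), and *Syt11* from 4776 ± 73.4 to 4258 ± 131 (SD, n = 5), with a log2 fold change of -0.17. *Syt13*, another synaptotagmin that does not bind calcium, rose from 3277 ± 38.0 to 3873 ± 157 (SD, n = 5), with a log2 fold change of 0.24. After these shifts *Syt13* stood above *Syt4* per length in the *Creb3l1*-shRNA line, at 1029.7 ± 41.8 against 798 ± 47.1 (SD, n = 5) normalised counts per kilobase, where it had been below it in the control line.

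The largest decrease of the role, and of all members, was in *Doc2b*, a soluble high-affinity calcium sensor. The control libraries 1 to 5 held 70.4, 68.9, 47.7, 87.3 and 90.5 normalised counts of *Doc2b*, and the knockdown libraries 1 to 5 held 35.8, 18.2, 24.5, 28.4 and 41.8. No knockdown library reached the lowest control library, which was non-targeting replicate 3. *Doc2b* (ENSMUSG00000020848, GRCm38 chromosome 11, 75768966 to 75796049, minus strand) was 2.44-fold lower (log2 fold change -1.29, adjusted p = 5.9e-07, edgeR), with an SE of 0.188 at these low counts. Its paralogue *Doc2a* was at a mean of 31.0 and 29.1 normalised counts in the lines and was not called, and 39.4% of its exon bases are shared with *Ino80e* on the opposite strand, whose mean count was 1700.0.

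All 6 tested genes of the role that holds the Rab effectors and the RIM proteins were called, 3 higher and 3 lower, where 40.7% of all genes were called. Their median absolute log2 fold change, 0.54, was the largest of the 9 roles, and the lines did not overlap for any of the 6, against 36.0% of all genes. For *Sytl2*, normalised counts were 1032, 1141, 1017, 1065 and 1095 in non-targeting replicates 1 to 5 and 571, 476, 599.9, 512 and 529.8 in *Creb3l1*-shRNA replicates 1 to 5. The synaptotagmin-like *Sytl2* (ENSMUSG00000030616, GRCm38 chromosome 7, 90302252 to 90410719, plus strand), an effector of Rab27, was 1.99-fold lower (log2 fold change -0.99, SE 0.0491, adjusted p = 1.2e-19, edgeR). In non-targeting replicates 1 to 5, *Sytl1* was at 381, 404, 430.3, 418 and 380.0 normalised counts, and in *Creb3l1*-shRNA replicates 1 to 5 at 249.9, 250.4, 255, 270.0 and 253. *Sytl1* (ENSMUSG00000028860, GRCm38 chromosome 4, 133253090 to 133263113, minus strand) encodes a further effector of Rab27 and fell by 36.4% (log2 fold change -0.65, SE 0.0652), and its knockdown libraries lay close together.

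*Sytl4* and *Rph3al* moved against *Sytl1* and *Sytl2*. *Sytl4* encodes granuphilin, which links granules to the syntaxin at the plasma membrane, and rose from 1394 ± 49.9 to 1884 ± 52.9 (SD, n = 5) normalised counts (log2 fold change 0.43, SE 0.0330, adjusted p = 1.6e-14, edgeR). The control libraries 1 to 5 held 159.9, 172, 189, 192 and 172 normalised counts of *Rph3al*, and the knockdown libraries 1 to 5 held 288, 260.1, 273, 306 and 246. *Rph3al* (ENSMUSG00000020847, GRCm38 chromosome 11, 75830999 to 75938429, minus strand) encodes Noc2, a Rab effector of endocrine granules, and rose 1.55-fold (log2 fold change 0.64, SE 0.0803), with every knockdown library above every control library. Among the RIM genes, *Rims2*, a scaffold that binds Rab3 and Munc13, rose from 1647 ± 58.1 to 1995 ± 61.0 (SD, n = 5), and *Rims3*, a short RIM without the Rab-binding domain, fell from 2468 ± 81.6 to 1901 ± 56.3 (SD, n = 5). Their log2 fold changes were 0.28 and -0.38 (adjusted p = 1.9e-09 and 3e-13, edgeR).

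**Figure D3:**
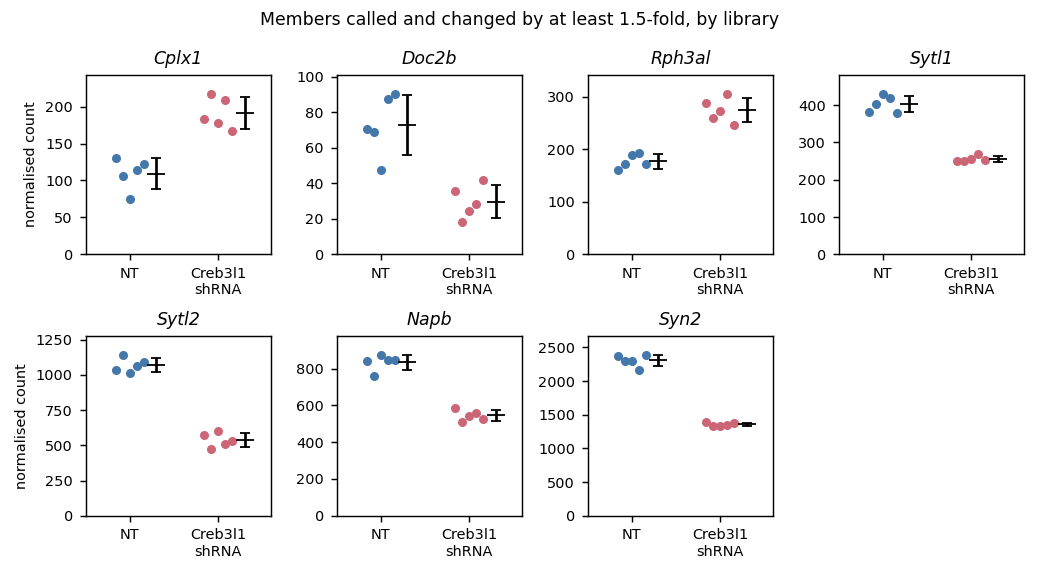
Normalised counts in each library (points) of the 7 members called with a change of at least 1.5-fold, in the non-targeting line (NT, blue) and the *Creb3l1*-shRNA line (red), with the mean ± SD (n = 5) in black. *Cplx1* and *Rph3al* are higher and the other 5 are lower in every *Creb3l1*-shRNA library than in any non-targeting library.

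All 3 listed genes of SNARE disassembly were called lower, where 20.1% of all genes were. The related *Napg*, outside the 56, was not called (log2 fold change -0.11, adjusted p = 0.026, edgeR). *Nsf*, the ATPase, fell from 2968 ± 97.2 to 2638 ± 72.01 (SD, n = 5) normalised counts (log2 fold change -0.17, adjusted p = 6e-06, edgeR). *Napa*, which encodes the widely expressed alpha-SNAP, fell by 7.35% (log2 fold change -0.11, SE 0.0266), and this call was lost on plain library totals and when GC content and transcript length were offset. For *Napb*, normalised counts were 841, 761, 874, 847 and 847 in non-targeting replicates 1 to 5 and 585, 512, 543, 561 and 528 in *Creb3l1*-shRNA replicates 1 to 5. *Napb* (ENSMUSG00000027438, GRCm38 chromosome 2, 148693985 to 148732467, minus strand), which encodes the neuronal beta-SNAP, fell by 34.5% (log2 fold change -0.61, SE 0.0465, adjusted p = 1.7e-14, edgeR), and the libraries of the lines did not overlap.

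Of the vesicle-associated proteins, both synapsins fell and *Syp* and *Sv2a* were not called. In non-targeting replicates 1 to 5, *Syn2* was at 2379, 2301, 2302, 2171 and 2387 normalised counts, and in *Creb3l1*-shRNA replicates 1 to 5 at 1389, 1336, 1338, 1354 and 1379. The counts of *Syn2* (ENSMUSG00000009394, GRCm38 chromosome 6, 115134902 to 115282006, plus strand) lay between 1336 and 1389 in the knockdown libraries, below the whole range of the controls. Its log2 fold change was -0.76 with an SE of 0.0322 (adjusted p = 9.4e-23, edgeR), a decrease of 41.1%. *Syn1*, which like *Syn2* tethers vesicles to each other and to actin, fell from 3363 ± 232 to 3022 ± 115 (SD, n = 5) normalised counts (log2 fold change -0.15, adjusted p = 0.0034, edgeR), with overlap between the lines and a call that was lost in 4 of 18 alternative fits. *Syp*, which encodes the membrane protein synaptophysin, was at 3191 ± 80.2 (SD, n = 5) normalised counts in the non-targeting line and 3133 ± 94.5 (SD, n = 5) in the *Creb3l1*-shRNA line (log2 fold change -0.026, SE 0.0283). *Sv2a*, a transporter-like protein of vesicle membranes, had a log2 fold change of -0.011 (SE 0.0461).

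The pairs *Napa* and *Napb*, and *Syn1* and *Syn2*, both fell, and their promoters are shown as examples of windows with and without the words sought, chosen after the matches had been seen. RefSeq promoter windows of 300 bases (250 before to 50 after an annotated start, GRCm38.p6) were searched on both strands for the following words. The word GACGTG is the core of the G-box that the study tied to Creb3l1 in the *Pcsk1* promoter. The word CACGTG lies within the G-box of the rat vasopressin promoter, which the study also tied to Creb3l1. The word TGACGTCA is the full cAMP response element. Capitals mark these words, and the sequences are given 5′ to 3′ on the strand of the gene.
Napa promoter, chr7:16098330-16098629, plus strand: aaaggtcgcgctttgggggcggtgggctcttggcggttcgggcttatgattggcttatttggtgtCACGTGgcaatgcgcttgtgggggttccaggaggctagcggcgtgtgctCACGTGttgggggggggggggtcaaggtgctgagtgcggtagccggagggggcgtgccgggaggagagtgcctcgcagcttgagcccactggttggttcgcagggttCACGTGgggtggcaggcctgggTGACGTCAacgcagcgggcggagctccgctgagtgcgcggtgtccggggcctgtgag
Napb promoter, chr2:148732371-148732670, minus strand: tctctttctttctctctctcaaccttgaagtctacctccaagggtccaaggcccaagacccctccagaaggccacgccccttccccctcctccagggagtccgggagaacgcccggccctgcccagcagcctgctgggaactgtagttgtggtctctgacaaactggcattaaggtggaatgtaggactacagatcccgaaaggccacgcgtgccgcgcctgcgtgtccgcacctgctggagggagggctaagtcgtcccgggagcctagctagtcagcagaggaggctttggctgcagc
Syn1 promoter, chrX:20920869-20921168, minus strand: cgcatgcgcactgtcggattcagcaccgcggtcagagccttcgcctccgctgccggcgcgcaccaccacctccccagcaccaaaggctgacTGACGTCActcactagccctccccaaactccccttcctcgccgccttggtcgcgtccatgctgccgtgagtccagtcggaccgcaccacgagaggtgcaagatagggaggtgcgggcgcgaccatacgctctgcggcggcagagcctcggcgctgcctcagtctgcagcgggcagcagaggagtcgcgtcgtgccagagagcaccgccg
Syn2 promoter, chr6:115134652-115134951, plus strand: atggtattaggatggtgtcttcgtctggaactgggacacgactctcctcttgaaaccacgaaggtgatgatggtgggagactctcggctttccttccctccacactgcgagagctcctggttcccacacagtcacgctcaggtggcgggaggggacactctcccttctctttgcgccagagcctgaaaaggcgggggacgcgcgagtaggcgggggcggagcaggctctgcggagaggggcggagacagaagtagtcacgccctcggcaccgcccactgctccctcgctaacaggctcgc
The *Napa* window holds CACGTG and TGACGTCA, the *Syn1* window holds TGACGTCA, and none of the words was found in the windows shown for *Napb* and *Syn2*. Nothing about the size of the changes is read from these examples. For *Syn2* the table has 2 windows, of which the first is shown.

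Promoter windows were matched for 42 of the 56 members, 37 of them tested. GACGTG was present in the windows of 2 of the 42 (4.76%), *Rims1* and *Rph3a*, neither of which was expressed here, and in none of the 37 tested. It was present for 7.15% of all 27025 genes with a window and in 6.38% of all 32851 windows. CACGTG was found for 7 members (16.7%), *Vamp4*, *Stxbp2*, *Unc13b*, *Cadps2*, *Nsf*, *Napa* and *Exoc1*, 6 of them tested, against 8.09% of all genes and 7.15% of windows. TGACGTCA was found for 3 members (7.14%), *Stxbp3*, *Napa* and *Syn1*, against 2.03% of genes and 1.79% of windows. These are matches of letters in a short window and say nothing of binding.

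Within the exocyst, the complex that tethers vesicles to the plasma membrane, 2 of 5 listed subunits were called (40.0%, against 40.7% of all genes). *Exoc6* fell, *Exoc1* rose and 3 were not called. Outside the 56, *Exoc2* rose (log2 fold change 0.30, adjusted p = 1.1e-09, edgeR) and *Exoc6b* fell (-0.28, adjusted p = 6.6e-06). *Exoc4*, *Exoc8* and *Exoc3l* were not called. The control libraries 1 to 5 held 760.4, 677, 736, 766 and 749 normalised counts of *Exoc6*, and the knockdown libraries 1 to 5 held 613, 624, 614, 592 and 635. The lines were fully separate for *Exoc6* (log2 fold change -0.26, SE 0.0444, adjusted p = 3.7e-06, edgeR). *Exoc1* rose from 836 ± 33.2 to 936 ± 24.3 (SD, n = 5) normalised counts (log2 fold change 0.16), but was not called when GC content and transcript length were offset. *Exoc3*, *Exoc5* and *Exoc7* had log2 fold changes of -0.059, 0.11 and -0.0094 and adjusted p of 0.39, 0.064 and 0.82 (edgeR). Over the fits, *Exoc5* was from -0.101 to 0.154 and *Exoc7* from -0.021 to 0.022, so neither had a stable sign. *Exoc5* was called without *Creb3l1*-shRNA replicate 2.

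Because paralogues fill the same role, the ratio of their levels per kilobase was computed in each library, as a description with no test. Kilobases of all exons were used, and the longest transcript gives other ratios but the same proportion between libraries. The ratio of *Sytl4* to *Sytl2* moved most, from 3.25 to 3.90 in non-targeting libraries and from 8.66 to 10.8 in *Creb3l1*-shRNA libraries (1.38 to 1.66 and 3.69 to 4.61 with the longest transcript). The ratio of *Syn1* to *Syn2* was from 2.79 to 3.33 in non-targeting libraries and from 4.48 to 5.01 in *Creb3l1*-shRNA libraries (1.55 to 1.85 and 2.48 to 2.78 with the longest transcript), and that of *Vamp2* to *Vamp3* was from 0.959 to 1.03 in non-targeting libraries and from 1.18 to 1.41 in *Creb3l1*-shRNA libraries (medians of 1.26 and 1.72 with the longest transcript). All 3 ratios were higher in every knockdown library. Lower ratios were seen for *Snap25* to *Snap23* and for *Napb* to *Napa*. The former was from 9.73 to 12.1 in non-targeting libraries and from 8.04 to 9.24 in *Creb3l1*-shRNA libraries, although *Snap25* was not called and the call of *Snap23* did not hold in every fit. The latter was from 0.120 to 0.137 in non-targeting libraries and from 0.0830 to 0.0992 in *Creb3l1*-shRNA libraries. *Cplx2* to *Cplx1* was from 47.0 to 84.7 in non-targeting libraries and from 33.0 to 42.1 in *Creb3l1*-shRNA libraries, and *Unc13a* to *Unc13b* was from 13.7 to 15.1 in non-targeting libraries and from 11.9 to 12.8 in *Creb3l1*-shRNA libraries. For *Syt1* to *Syt7* the lines overlapped, at 0.154 to 0.167 and 0.147 to 0.159 (0.235 to 0.256 and 0.225 to 0.244 with the longest transcript). Despite these shifts the more abundant member of each pair stayed the same in every library, apart from *Vamp2* and *Vamp3*, which were about level in the control line over all exons, while *Vamp2* was higher in every library with the longest transcript.

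**Figure D4:**
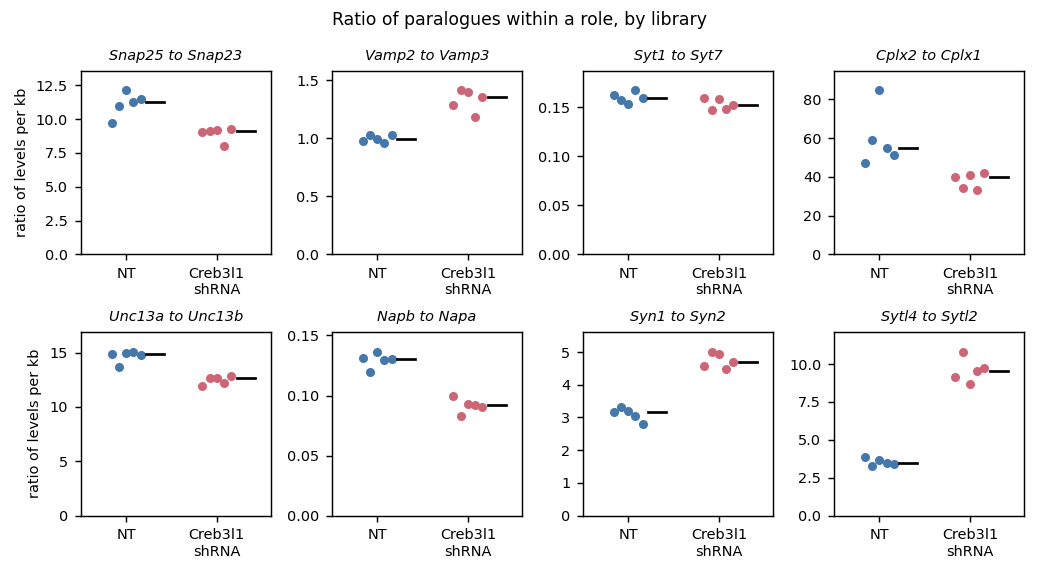
Ratio of the levels per kilobase of 8 pairs of members in each library (points; y axes start at 0), with the median of each line in black. The lines are separate for 7 of the 8 pairs, with *Sytl4* to *Sytl2* from 3.25 to 3.90 in the non-targeting line (NT, blue) and from 8.66 to 10.8 in the *Creb3l1*-shRNA line (red). The share of other gene pairs that separate was not computed, and 36.0% of all single genes tested did not overlap between the lines.

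Genes of the pathway outside the 56 were read from 2 further lists. Of 52 other exocytosis genes, 37 were tested, of which 8 rose, 9 fell and 20 were not called (45.9% called, median log2 fold change 0.016). The largest increases among them were in *Cadps*, which encodes the priming factor CAPS1, from 607 ± 33.5 to 993 ± 19.7 (SD, n = 5), with a log2 fold change of 0.71, and in *Sv2c*, from 492 ± 33.4 to 788 ± 57.4 (SD, n = 5), with a log2 fold change of 0.68. *Syngr1*, a relative of synaptophysin, fell from 1012 ± 30.0 to 507 ± 13.7 (SD, n = 5), with a log2 fold change of -0.998. Of 26 SNAREs and SNARE-binding genes of the ER, Golgi and endosomes, 25 were tested, 5 rose and 5 fell (40.0% called, median log2 fold change 0.040). The largest changes were increases in *Sec22c* (0.79) and *Ykt6* (0.24) and decreases in *Bet1l* (-0.27) and *Sec22a* (-0.25). The share called was 58.8% for the 51 members tested and 40.7% for all genes tested, and the difference between lists was not tested.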

How the data were processed

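RNA was measured in 10 libraries of stably transduced AtT20 cells, 5 for each shRNA. The authors made stranded libraries from poly(A) RNA, aligned paired reads with STAR to GRCm38.p6 and assigned them to genes of Ensembl release 97 with featureCounts; versions and the strand setting of the counting are not given in the sources used here. The deposited values are raw counts per gene.

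Counts were fitted in edgeR 4.0.16 (R 4.3.3) with filterByExpr, TMM factors and the robust quasi-likelihood test, with no covariate, and an adjusted p under 0.01 was the threshold, as in the study. DESeq2 1.42.0 was an alternative. Standard errors came from the fold change and the F statistic. Identifiers were paired with symbols through the reference table and, for genes on scaffolds, the GENCODE M21 annotation, which also gave exon lengths. Promoter sequences are from RefSeq. Genes given library by library are *Creb3l1*, called members changed by at least 1.5-fold and the member of largest change in each role. For other lists the 2 largest called changes in each direction are named, except for a gene that is not reported here.

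Alternatives were other size factors and filters, DESeq2, a replicate block, offsets for GC content and length, and leaving out each library.

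The members and lists were chosen with earlier results of these data known. On simulated counts for 14239 genes edgeR recovered 73 of 100 genes changed by 0.5 and 95 of 100 changed by 1 on the log2 scale, and called 4 unchanged genes. The simulation changed 200 genes and drew the spread from its trend with level, without a spread of each gene's own. Recovery and false calls in the real libraries can therefore differ. Depth was 17420698 to 22205107 counts per library, and the median SE was 0.041 for members.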

Additional observations from a re-analysis of the deposited data

Results flagged for a closer look

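In each group of 5 libraries of a line, the distance of an extreme value from the next was compared with Dixon's critical value. Of 44 such groups, 6 passed, where chance gives about 1 in 20, or 2.20. *Sytl1* was at 270.0 normalised counts in *Creb3l1*-shRNA replicate 4, against 249.9 to 255 in the others of its line, all below the control libraries. The ratio of *Snap25* to *Snap23* was 8.04 in *Creb3l1*-shRNA replicate 4, against 9.07 to 9.24. The ratio of *Unc13a* to *Unc13b* was 13.7 in non-targeting replicate 2, against 14.8 to 15.1. *Gm42418* took 4.13% of the counts of non-targeting replicate 3, against 0.107% to 0.129%, and the TMM factor of that library was 0.953, against 1.005 to 1.007 in the others of its line. The TMM factor of *Creb3l1*-shRNA replicate 1 was 0.9997, against 1.005 to 1.006.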

How the results depend on the processing

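Of the 30 members called, 23 kept their call and direction in all 18 alternative fits, 11 higher and 12 lower, and these include all 7 that changed by at least 1.5-fold. None of the 30 changed sign, whereas 9 of the members not called did. The other 7 were *Snap23*, *Stxbp2*, *Stxbp5*, *Syt7*, *Napa*, *Syn1* and *Exoc1*. The number of members called was 30 with DESeq2, 30 with library totals, of which 29 were among the 30, and 26 once GC content and transcript length were offset, which lost 6 calls and gained *Snap25* and *Vamp1*. With each library left out it was from 27 to 31, and it was 27 without non-targeting replicate 3. Without a robust estimate of the spread, a comparison chosen after seeing the data, it was 27. A change of at least 1.5-fold was reached by 7 members, 2 higher and 5 lower, and by 1108 of all genes, 470 higher and 638 lower, which follows from the added requirement. The median log2 fold change of the members was -0.011, 0.00099 on library totals and -0.041 after those offsets, and from -0.023 to 0.0031 with each library left out. It therefore has no stable sign. The cause was not tested. Of 5837 genes called in all, between 5408 and 6026 were called with each library left out. *Vamp7* passed the threshold without non-targeting replicate 5 (adjusted p = 0.0098) or *Creb3l1*-shRNA replicate 2 (adjusted p = 0.0021, edgeR). It could not be fitted with the offsets, for want of a GC value.

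Libraries with the same replicate number did not deviate together (correlations from -0.065 to 0.040), not every library correlated best with its own number, and the labels do not tie the numbers to a shared source, so the numbers were not used as pairs. With a replicate block 31 members and 6013 genes were called.

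With the longest transcript as the length, 40 in place of 34 members had at least 100 normalised counts per kilobase, and *Vamp2* and *Syp* led their roles in place of *Vamp3* and *Syn1*. The median control ratios, a comparison added after seeing the data, were then 10.0 for *Snap25* to *Snap23*, 1.26 for *Vamp2* to *Vamp3*, 0.243 for *Syt1* to *Syt7*, 11.9 for *Unc13a* to *Unc13b*, 0.139 for *Napb* to *Napa*, 1.75 for *Syn1* to *Syn2* and 1.48 for *Sytl4* to *Sytl2*, against 11.3, 0.994, 0.159, 14.9, 0.131, 3.16 and 3.47, and *Cplx2* to *Cplx1* stayed at 54.8. Depth limits *Stxbp6*, *Unc13d* and *Doc2a*, whose standard errors were between 0.20 and 0.28.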
